A study of Mus musculus with 8 samples.

Results

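The enzymes described here make up the kidney's machinery for breaking down amino acids and for making glucose, together with 2 enzymes of fructose and inositol breakdown. They were chosen by name: rows of the deposited table whose platform gene symbol was among 41 listed enzymes, transporters and partner proteins, grouped in 10 pathways. Of the 41 genes 39 were on a named probe, each on 1 row, out of 19505 named genes in all. Ass1 and Glud1 were not matched to a named probe and were not analysed here. Kidney total RNA came from NZBWF1 mice, the F1 cross of NZB with NZW, in which lupus-like nephritis appears with age. The 8-week group held 4 mice (replicates 1 to 4) and the 28-week group 4 mice (replicates 6 to 9), with no treatment named in the labels, and each was measured on 1 Clariom S Mouse array. Both groups are of the same strain and whole kidney was used, so age and course of disease cannot be told apart here. Each value is a log2 intensity as RMA (robust multi-array average) gives it, and a difference is 28 weeks minus 8 weeks on that scale. Adjusted p comes from limma, corrected by Benjamini and Hochberg's method across the 22206 probes of the array, and the threshold was 0.05. A fold is the difference taken back from the log2 scale, with the base of 2 assumed.

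The proximal tubule, the first stretch of the nephron, reabsorbs filtered amino acids and glucose and carries many enzymes that are otherwise known from the liver. The kidney is, besides the liver, the organ that releases newly made glucose into the blood, and it exports arginine, serine and the creatine precursor guanidinoacetate. Most of the carbon for this comes from glutamine and lactate, passed through mitochondrial oxaloacetate and then through phosphoenolpyruvate to glucose 6-phosphate.

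The tissue and the arrays were examined first. Markers of the named tissue were bright: Umod of the thick ascending limb lay between 18.31 and 18.72 over the 8 arrays, and the proximal tubule genes Slc34a1 and Lrp2 at or above 17.45. Of 8 hepatocyte markers, listed because many of the enzymes are also liver enzymes, none passed the threshold and 6 had a positive difference. The means of that list were 8.59 to 8.96 at 8 weeks and 9.01 to 9.52 at 28 weeks, with no overlap. Its brightest gene, Ttr, had a mean of 14.78, and its dimmest, Apoa1, lay between 3.47 and 3.94. Alb was 9.65 ± 0.29 (SD, n = 4) at 8 weeks and 10.35 ± 0.77 (SD, n = 4) at 28 weeks. Array medians lay between 5.98 and 6.14. One array stood apart from its group in these enzymes. Measured from its own 8-week mean, the median gene of the 39 deviated by -0.04 in 28-week replicate 7, compared with -0.60 in replicate 6, -0.61 in replicate 8 and -0.81 in replicate 9. That array was the highest of the 28-week arrays in 34 of the 39 genes, and replicate 9 was the lowest in 30. Results are given with all 8 arrays and, where it matters, without replicate 7. Because that array was singled out by the values of these same genes, its removal favours lower 28-week values, and calls made without it are a description.

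At 28 weeks 4 of the 39 genes fell and none rose. The 4 were Pcx, which encodes pyruvate carboxylase, the entry of pyruvate into gluconeogenesis (4.41-fold lower), Agxt2, a mitochondrial aminotransferase (2.45-fold lower), Ttc36, a partner protein of the tyrosine pathway (2.37-fold lower), and Bckdha, a subunit of the branched-chain ketoacid dehydrogenase (2.27-fold lower). Over all 22206 probes 0.522% passed in the lower and 0.446% in the higher direction. Among the 5884 probes at least as bright as the dimmest of the 39 genes, 1.39% passed in the lower and 0.918% in the higher direction. Of the 39 differences 36 were negative, with a median of -0.49, where 51.3% of all probes and 50.5% of the bright ones had a negative difference and the median of all probes was -0.01. In 13 of the 39 all 28-week arrays lay below all 8-week arrays, which was so for 4.33% of all probes and 8.79% of the bright ones, and none of the 39 had all its 28-week arrays above, which was so for 4.38% of all probes and 7.61% of the bright ones. At an unadjusted p under 0.05, 21 were lower, against 6.63% of all probes and 13.1% of the bright ones. Pcx passed in every one of the 8 fits that left out 1 array. Agxt2, Ttc36 and Bckdha passed without 28-week replicate 7 (adjusted p = 0.0057, 0.00212 and 0.00365) and did not pass without any one of the other 7 arrays (adjusted p of up to 0.128, 0.14 and 0.141). The genes were listed with earlier results of these data known, so the list as a whole was not tested. In whole-kidney RNA, fewer tubule cells and less of a transcript per cell cannot be told apart.

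**Figure D1:**
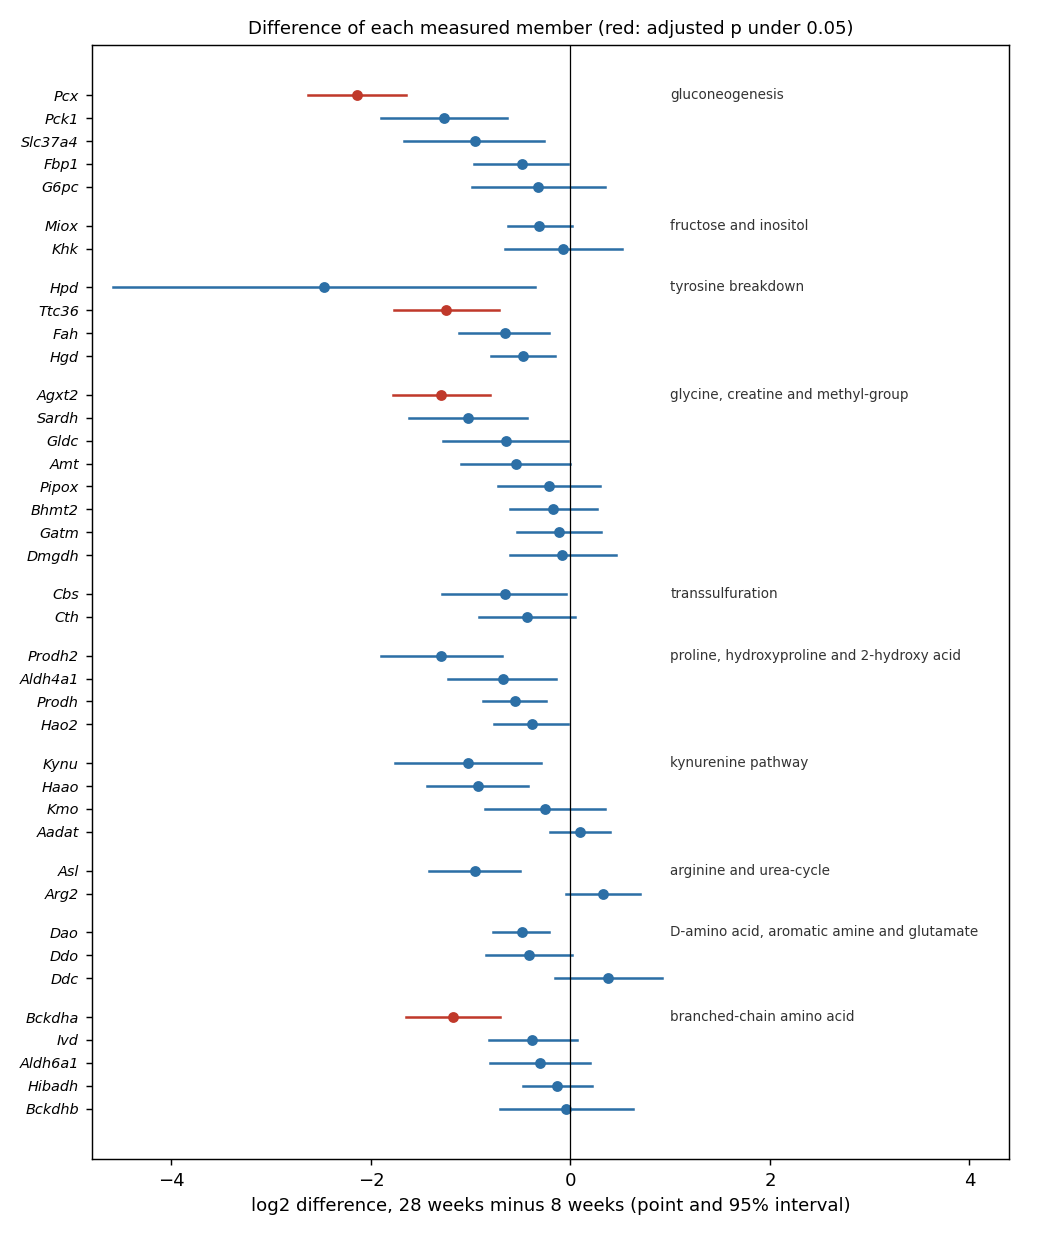
Log2 difference between 28 and 8 weeks for the 39 genes, with 4 arrays at each age, grouped by pathway and ordered within it; points are differences and lines 95% intervals from limma. Pcx, Ttc36, Agxt2 and Bckdha, in red, passed the threshold, and the intervals of all other genes lie below or across 0.

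The smallest adjusted p of the 39 genes was in gluconeogenesis. Pcx, which turns pyruvate into oxaloacetate inside the mitochondrion, read 12.87, 12.38, 12.64 and 12.57 in 8-week replicates 1 to 4 and 10.28, 11.06, 10.55 and 10.01 in 28-week replicates 6 to 9. The groups are far apart, and replicate 7, the highest of the 28-week arrays, still lay more than 1 log2 unit below the lowest 8-week array. The means were 12.62 ± 0.20 (SD, n = 4) at 8 weeks and 10.48 ± 0.45 (SD, n = 4) at 28 weeks, a difference of -2.14 (95% interval -2.63 to -1.65, adjusted p = 0.00506). In the 8 fits that left out 1 array its adjusted p was 0.000226 to 0.0331, and no other of the 39 genes passed in all 8. Pck1 encodes the cytosolic phosphoenolpyruvate carboxykinase, which takes oxaloacetate to phosphoenolpyruvate. Its values were 17.42, 17.11, 17.42 and 17.43 at 8 weeks and 16.24, 16.91, 15.69 and 15.45 at 28 weeks. The ages did not overlap, but the 28-week arrays spread widely, and the difference of -1.27 missed the threshold (adjusted p = 0.0699). Without replicate 7 Pck1 was 2.93-fold lower (adjusted p = 0.00247).

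None of the other 3 genes of the pathway passed with all arrays. Slc37a4, the transporter that brings glucose 6-phosphate into the endoplasmic reticulum, had a difference of -0.96 (adjusted p = 0.175, and 0.0146 without replicate 7). Fbp1, fructose-1,6-bisphosphatase, had one of -0.49 (adjusted p = 0.306). G6pc, the phosphatase that releases free glucose, had one of -0.32 with an interval of -0.99 to 0.35 (adjusted p = 0.698), and its values overlapped between the ages. The ratio of Pck1 to G6pc within an array, as a log2 value, was 0.12 ± 0.31 (SD, n = 4) at 8 weeks and -0.84 ± 0.12 (SD, n = 4) at 28 weeks. Adding the same amount to all log2 values of an array leaves such a ratio unchanged. Other steps of normalization may change it. The ratio of Pcx to Pck1 was -4.73 ± 0.13 at 8 weeks and -5.60 ± 0.38 at 28 weeks (SD, n = 4). In both ratios all 28-week arrays lay below all 8-week arrays. The 5 gene pairs whose ratios are given were chosen after their values were seen, so the ratios are descriptions and were not used as tests.

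**Figure D2:**
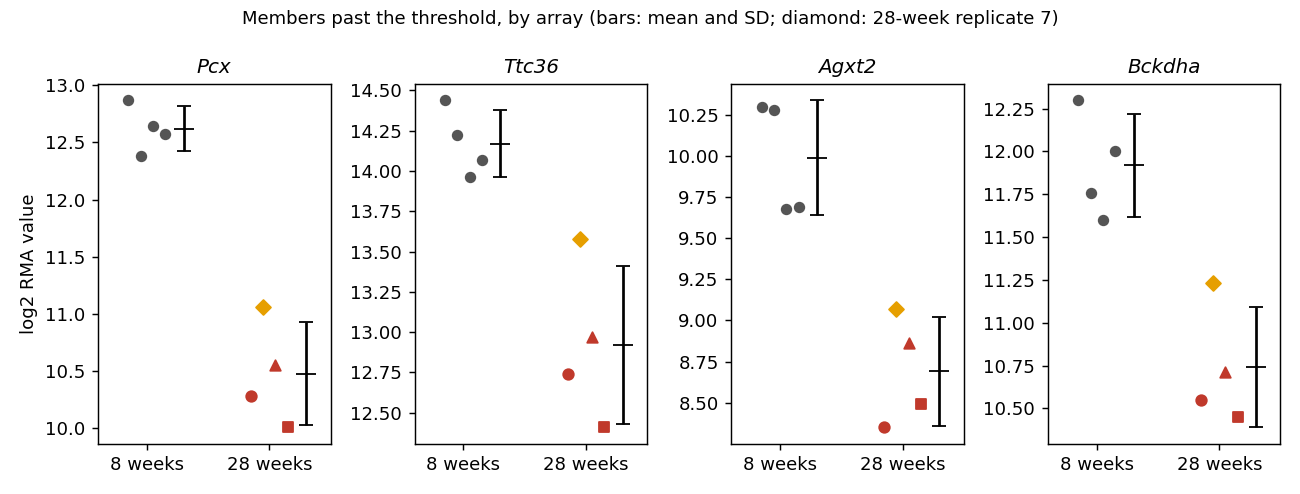
Log2 RMA values of the 4 genes past the threshold in each array, 8-week mice in grey and 28-week mice in colour, with mean and SD beside the points (n = 4); each panel has its own vertical scale, which does not start at 0. In all 4 genes the 28-week arrays lie below the 8-week arrays, and replicate 7, the diamond, is the highest of them.

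The stretches of DNA before annotated transcript starts of these genes are shown because the 4 genes fell together and Pck1 and Prodh2 lay close to the threshold. The sequences are RefSeq's for GRCm38.p6, cover the 250 bases before an annotated transcript start, and run 5′ to 3′ on the gene's strand. Capitals mark a match to 1 of 6 searched motifs. The Bckdha sequence and the second of Pcx hold no match. Pcx has 2 annotated starts, and for Agxt2 the first of 2 overlapping windows is given. The windows of Agxt2, Bckdha and Prodh2 and the second of Pcx reach into the annotated span of the gene. No window was available for 5 of the 39 genes. Among them were Ttc36, which is named only, and Asl, whose adjusted p of 0.0619 was also close to the threshold. The windows lie at chr19:4510222-4510471 and chr19:4594069-4594318 (Pcx, plus strand), chr15:10358283-10358532 (Agxt2, plus strand), chr7:25658762-25659011 (Bckdha, minus strand), chr2:173152823-173153072 (Pck1, plus strand) and chr7:30493408-30493657 (Prodh2, plus strand).
Pcx, first start: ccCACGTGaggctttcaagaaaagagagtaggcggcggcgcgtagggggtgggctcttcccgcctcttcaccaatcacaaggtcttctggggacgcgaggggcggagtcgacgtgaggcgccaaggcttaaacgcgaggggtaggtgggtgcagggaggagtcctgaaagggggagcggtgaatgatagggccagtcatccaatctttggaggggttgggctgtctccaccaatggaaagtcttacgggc
Pcx, second start: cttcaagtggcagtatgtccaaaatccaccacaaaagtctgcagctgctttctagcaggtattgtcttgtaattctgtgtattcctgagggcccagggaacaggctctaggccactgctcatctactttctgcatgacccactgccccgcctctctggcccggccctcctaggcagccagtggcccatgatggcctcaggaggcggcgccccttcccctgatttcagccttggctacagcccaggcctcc
Agxt2: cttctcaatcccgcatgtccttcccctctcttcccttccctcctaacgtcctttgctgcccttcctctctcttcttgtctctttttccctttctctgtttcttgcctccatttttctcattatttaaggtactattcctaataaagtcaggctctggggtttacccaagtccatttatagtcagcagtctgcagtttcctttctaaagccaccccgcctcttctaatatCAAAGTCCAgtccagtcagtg
Bckdha: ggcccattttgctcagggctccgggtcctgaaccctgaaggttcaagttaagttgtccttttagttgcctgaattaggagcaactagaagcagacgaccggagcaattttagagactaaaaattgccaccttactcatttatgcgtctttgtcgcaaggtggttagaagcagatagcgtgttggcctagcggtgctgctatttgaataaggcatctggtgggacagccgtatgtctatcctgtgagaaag
Pck1: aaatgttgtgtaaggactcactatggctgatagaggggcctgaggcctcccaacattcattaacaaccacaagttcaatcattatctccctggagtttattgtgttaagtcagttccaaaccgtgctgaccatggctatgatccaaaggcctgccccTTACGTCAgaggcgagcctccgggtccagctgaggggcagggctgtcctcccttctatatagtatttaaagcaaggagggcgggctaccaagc
Prodh2: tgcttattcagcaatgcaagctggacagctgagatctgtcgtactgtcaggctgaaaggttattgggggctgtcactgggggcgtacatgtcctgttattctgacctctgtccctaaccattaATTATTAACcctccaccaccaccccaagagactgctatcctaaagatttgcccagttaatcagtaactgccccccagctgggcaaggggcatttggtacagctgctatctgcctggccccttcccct

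The 6 motifs were searched on both strands, in 43 windows of 34 of the genes and in all 32851 windows of the table. The HNF4-specific motif CAAAGTCCA, read by a nuclear receptor of proximal tubule and liver, was in 0.384% of all windows and, among these genes, in those of Agxt2 and Aadat. In the printed Agxt2 window it ends 12 bases before the start that this window precedes. The annotated span of Agxt2 begins at 10358516, inside the window, and the motif lies across that position. The core of the HNF1 motif, GTTAATNAT, was in 0.737% of all windows and in those of G6pc and Prodh2, in Prodh2 on the opposite strand. The variant cyclic AMP response element TTACGTCA was in 0.447% of all windows and in that of Pck1, while the full element TGACGTCA, in 1.55% of all windows, matched none of the 43. The E-box CACGTG was in 6.02% of all windows and in those of Khk, Dao, Ddo, Cbs and Pcx, in Pcx at the far end of the first window. The D-box TTATGTAA was in 0.819% of all windows and in that of Miox. No printed window holds overlapping matches. Of the genes with the HNF4 motif Agxt2 fell, and Aadat had a difference of 0.10 (95% interval -0.20 to 0.40). A match is a run of letters, and binding was not measured.

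Tyrosine breakdown runs from 4-hydroxyphenylpyruvate through homogentisate to fumarate and acetoacetate. Ttc36, a tetratricopeptide protein reported to keep the Hpd protein from being degraded, read 14.44, 14.22, 13.96 and 14.07 at 8 weeks and 12.74, 13.58, 12.97 and 12.41 at 28 weeks. The highest 28-week value, again replicate 7, was below the lowest at 8 weeks (difference -1.25, 95% interval -1.77 to -0.72, adjusted p = 0.044). Hpd itself, the dioxygenase that makes homogentisate, had the widest spread of the 39 genes at 28 weeks. It read 14.07, 13.97, 13.20 and 13.26 at 8 weeks and 9.69, 14.25, 11.82 and 8.86 at 28 weeks. Replicates 6 and 9 were more than 3 log2 units below every 8-week array, replicate 8 was between, and replicate 7 was the highest of all 8 arrays. The mean difference was -2.47 with an interval of -4.59 to -0.35 (adjusted p = 0.247), and without replicate 7 it was -3.50 (11.3-fold lower, adjusted p = 0.00836).

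The next enzymes of the same route did not pass with all arrays. Hgd, homogentisate dioxygenase, was 16.02, 16.11, 15.94 and 16.09 at 8 weeks and 15.43, 15.86, 15.59 and 15.37 at 28 weeks (adjusted p = 0.149). Fah, which splits fumarylacetoacetate and whose loss causes tyrosinaemia, was 16.10, 16.08, 16.00 and 15.97 at 8 weeks and 15.38, 15.89, 15.40 and 14.82 at 28 weeks (adjusted p = 0.152). In both genes every 28-week array lay below every 8-week array, with replicate 7 only 0.08 below the lowest of them. Of 4 other measured genes around the pathway none passed, and Qdpr, which regenerates the cofactor of phenylalanine hydroxylase, had the smallest p (difference -0.62, adjusted p = 0.11).

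Glycine, creatine and methyl-group metabolism gave 8 measured genes, of which 1 fell. Agxt2 moves amino groups to glyoxylate and clears dimethylarginines and beta-aminoisobutyrate. It read 10.30, 10.28, 9.68 and 9.69 at 8 weeks and 8.35, 9.07, 8.86 and 8.49 at 28 weeks. Replicate 7, the highest at 28 weeks, was 0.61 below the lowest 8-week array (difference -1.30, 95% interval -1.78 to -0.81, adjusted p = 0.033). Sardh, which removes the methyl group of sarcosine in the mitochondrion, read 11.08, 10.33, 10.40 and 10.32 at 8 weeks and 9.25, 10.14, 9.62 and 9.0 at 28 weeks. Its groups did not overlap and its difference of -1.03 missed the threshold (adjusted p = 0.0976, and 0.0146 without replicate 7).

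The remaining 6 genes of that group did not pass and overlapped between the ages. Gldc and Amt, 2 proteins of the glycine cleavage system, had differences of -0.65 and -0.55 (adjusted p = 0.313 and 0.334). Their ratio within an array had a mean of 0.12 ± 0.61 at 8 weeks and 0.01 ± 0.42 at 28 weeks (SD, n = 4), with overlap. Gatm, which makes guanidinoacetate for creatine, had a difference of -0.11 and an interval of -0.54 to 0.31. Dmgdh, which precedes Sardh in choline breakdown, had one of -0.08 (-0.61 to 0.46), the peroxisomal sarcosine oxidase Pipox one of -0.21 (-0.73 to 0.30), and the homocysteine methyltransferase Bhmt2 one of -0.17 (-0.61 to 0.27). Gatm, Dmgdh, Pipox and Bhmt2 were each higher in replicate 7 than in every 8-week array. Chdh, the choline dehydrogenase upstream of these enzymes, was 1.96-fold lower at adjusted p = 0.0514, the nearest to the threshold of 11 further genes of the group.

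Transsulfuration turns homocysteine into cysteine through Cbs and Cth. Cbs, the first enzyme, read 12.02, 12.13, 11.52 and 11.62 at 8 weeks and 11.16, 11.99, 10.83 and 10.66 at 28 weeks (adjusted p = 0.299). Cth, which releases cysteine, had a difference of -0.44 (adjusted p = 0.394). In both, replicate 7 lay inside the 8-week range or above it and the other 28-week arrays below it, and both passed without replicate 7 (adjusted p = 0.0293 for Cbs and 0.0319 for Cth). Suox, the sulfite oxidase that ends cysteine breakdown, was 1.68-fold lower in the same fit of all arrays, at adjusted p = 0.072.

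Proline and hydroxyproline enter by separate dehydrogenases and share the next step. Prodh2, which oxidises hydroxyproline from collagen breakdown, read 12.87, 12.56, 12.11 and 12.27 at 8 weeks and 10.80, 11.82, 11.36 and 10.65 at 28 weeks. Prodh, the proline dehydrogenase, read 12.90, 12.81, 12.71 and 12.84 at 8 weeks and 12.30, 12.48, 12.23 and 12.01 at 28 weeks. Both were lower in all 28-week arrays without passing the threshold (differences -1.30 and -0.56, adjusted p = 0.0592 and 0.0956). The Prodh2 to Prodh ratio within an array was -0.36 ± 0.27 at 8 weeks and -1.10 ± 0.40 at 28 weeks (SD, n = 4), with no overlap, and is a description of a pair picked from its values. The shared dehydrogenase Aldh4a1 had a difference of -0.68 (adjusted p = 0.211), and Hao2, a peroxisomal oxidase of 2-hydroxy acids, one of -0.39 (adjusted p = 0.297). Oat, the ornithine aminotransferase that feeds the same intermediate, was 14.60 ± 0.08 (SD, n = 4) at 8 weeks and 14.12 ± 0.11 (SD, n = 4) at 28 weeks, with no overlap and adjusted p = 0.106.

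The kynurenine pathway takes tryptophan towards quinolinate and nicotinamide nucleotides. Haao, which makes the precursor of quinolinate, read 12.66, 12.43, 12.38 and 12.23 at 8 weeks and 11.31, 12.19, 11.25 and 11.21 at 28 weeks. Replicate 7 was 0.04 below the lowest 8-week array and the others were further below (difference -0.93, adjusted p = 0.0848, and 0.00244 without it). Kynu, kynureninase, read 11.35, 12.05, 11.26 and 11.79 at 8 weeks and 10.15, 11.55, 10.67 and 9.97 at 28 weeks (adjusted p = 0.165). Here replicate 7 was inside the 8-week range, and the other 28-week arrays were at least 0.59 below it. Kmo, the hydroxylase between kynurenine and Kynu, had a difference of -0.25 (-0.86 to 0.35), and Aadat, an aminotransferase that diverts kynurenine to kynurenate, was 18.09 ± 0.16 (SD, n = 4) at 8 weeks and 18.19 ± 0.03 (SD, n = 4) at 28 weeks. Afmid, the formamidase that makes kynurenine, was 2.74-fold lower (adjusted p = 0.0976). It read 11.89 in replicate 7 and 9.82 to 10.76 in the other 28-week arrays.

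Of the genes of arginine synthesis and breakdown, Asl and Arg2 had differences of opposite sign and neither passed. Asl, argininosuccinate lyase, which completes the arginine synthesis of the proximal tubule, read 12.32, 12.69, 12.26 and 12.19 at 8 weeks and 11.73, 11.53, 10.85 and 11.49 at 28 weeks. Replicate 7 was not apart in this gene: it lay between replicates 9 and 6, and replicate 8 was the lowest (difference -0.96, 95% interval -1.42 to -0.51, adjusted p = 0.0619). Arg2, the mitochondrial arginase, read 9.37, 9.49, 9.40 and 9.68 at 8 weeks and 10.06, 9.54, 9.61 and 10.04 at 28 weeks. Its difference of 0.33 did not pass and the ages overlapped (adjusted p = 0.402). The liver urea cycle genes Cps1, Otc, Arg1 and Nags, among 8 further genes of the group, had differences between -0.08 and 0.14, and none of the 8 passed. These 4 genes read only 2.87 to 4.43 over the arrays, below the median probe at 6.06, so a change in them could hardly be seen.

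Dao, D-amino acid oxidase of peroxisomes, read 15.88, 16.08, 15.85 and 15.77 at 8 weeks and 15.38, 15.42, 15.48 and 15.32 at 28 weeks. All 28-week arrays, replicate 7 included, were within 0.16 of each other and below every 8-week array (difference -0.49, adjusted p = 0.103). Its relative Ddo, D-aspartate oxidase, had a difference of -0.42 (adjusted p = 0.354). Ddc, the decarboxylase with which the proximal tubule makes dopamine, read 12.02, 12.60, 11.57 and 11.69 at 8 weeks and 12.70, 12.37, 12.35 and 11.99 at 28 weeks. It had the largest positive difference of the 39 genes, 0.38, and overlapped between the ages (adjusted p = 0.524).

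Branched-chain amino acids lose their carboxyl group in a mitochondrial complex whose first enzyme is built from Bckdha and Bckdhb in equal numbers. Bckdha read 12.30, 11.76, 11.60 and 12.00 at 8 weeks and 10.55, 11.23, 10.71 and 10.45 at 28 weeks (difference -1.18, 95% interval -1.65 to -0.71, adjusted p = 0.039). Bckdhb read 12.33, 12.41, 11.97 and 11.57 at 8 weeks and 12.06, 12.85, 11.41 and 11.79 at 28 weeks (difference -0.04, 95% interval -0.71 to 0.63, adjusted p = 0.973). All 28-week arrays of Bckdha were below the 8-week arrays, whereas replicate 7 was the highest of all 8 in Bckdhb. The ratio of Bckdha to Bckdhb within an array was -0.03, -0.65, -0.37 and 0.43 at 8 weeks and -1.51, -1.62, -0.70 and -1.34 at 28 weeks. The ages did not overlap in this ratio, their means differed by -1.14, and replicate 7 had the lowest ratio of all 8 arrays. This pair too was picked from its values, so the ratio is a description.

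None of the later enzymes of the route passed. Ivd, of leucine breakdown, had -0.38 (-0.82 to 0.07), Aldh6a1, of valine and thymine breakdown, -0.30 (-0.81 to 0.20), and Hibadh, of valine breakdown, -0.13 (-0.48 to 0.22), each as a log2 difference with its 95% interval. Pcca, a subunit of propionyl-CoA carboxylase, had the smallest p of 19 further genes of the route (difference -0.60, adjusted p = 0.105, no overlap). Neither sugar enzyme passed. Khk, which phosphorylates fructose, had a difference of -0.07 (-0.66 to 0.52). Miox, which opens the inositol ring and is known from the proximal tubule, read 17.63, 17.70, 17.74 and 17.82 at 8 weeks and 17.41, 17.66, 17.44 and 17.15 at 28 weeks (adjusted p = 0.36), with replicate 7 inside the 8-week range and the others below it.

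**Figure D3:**
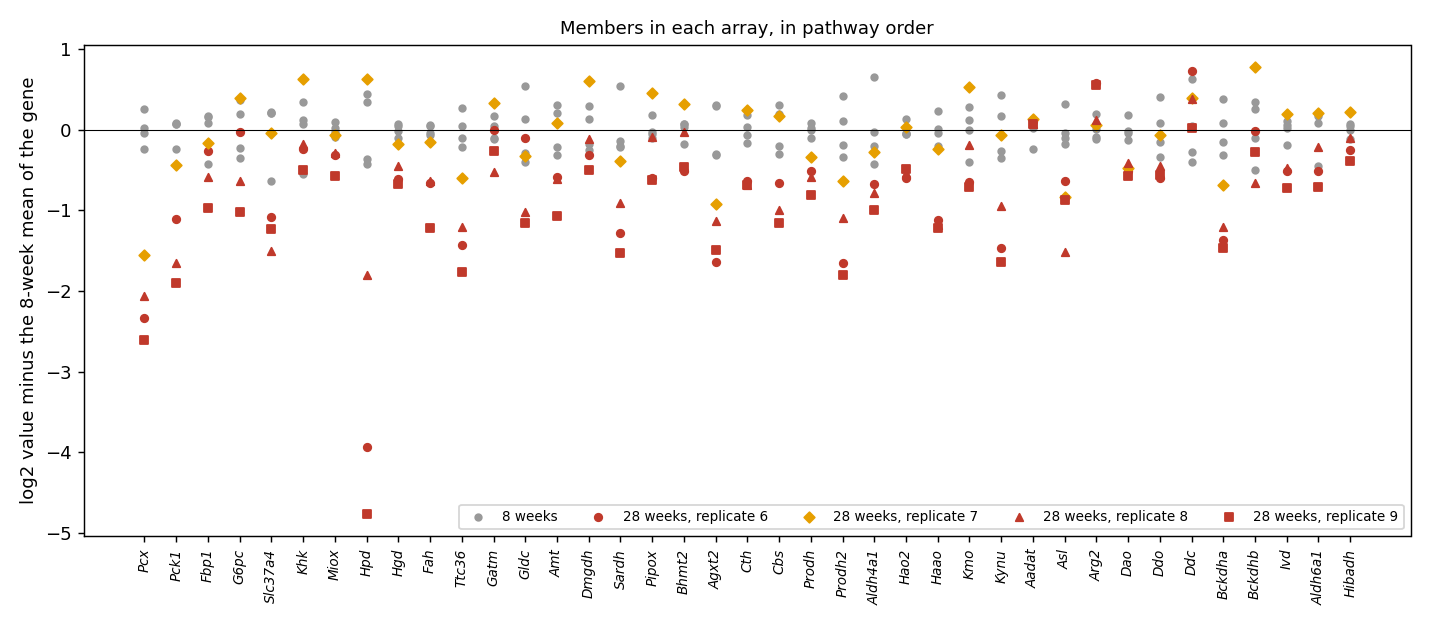
Each of the 39 genes in each array as log2 value minus the gene's 8-week mean, in pathway order; grey points are 8-week arrays and coloured symbols the 28-week arrays. Replicates 6, 8 and 9 lie below 0 in 36 of the 39 genes each, while replicate 7 lies below 0 in 20 and above it in 19.

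Around these genes, 110 others of the same pathways were listed, and 91 were measured. None of the 91 passed in limma with all arrays, 70 had a negative difference, where 51.3% of all probes did, and the median was -0.23. At an unadjusted p under 0.05, 27 were lower, against 6.63% of all probes. None passed after centring on array medians or without any one of the 7 arrays other than replicate 7. Under quantile normalization, ribosomal centring, a filter on dim probes, averaging by gene, trend and robust options or array weights, 1 to 5 passed. Without replicate 7 the count was 16, against 1.95% of all probes, and without 8-week replicate 1 as well it was 13. All of these calls were in the lower direction. The gene with the smallest p in each group was, beyond those named above, the mitochondrial dicarboxylate carrier gene Slc25a10 (difference -0.49, adjusted p = 0.184), the triokinase gene Tkfc of fructose breakdown (-0.68, 0.177), Abat, which breaks down the transmitter GABA (-0.57, 0.201), the dimethylarginine hydrolase gene Ddah1 (-0.24, 0.513) and Dhtkd1 of lysine breakdown (-1.21, 0.123), each given as log2 difference and adjusted p.

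The split between replicate 7 and the other 28-week arrays ran through most of the genes, to different degrees. Replicates 6, 8 and 9 lay below all 8-week arrays in 30, 29 and 34 of the 39 genes, and replicate 7 in 13. Those 13 were the genes whose ages did not overlap: Pcx, Pck1, Hgd, Fah, Ttc36, Sardh, Agxt2, Prodh, Prodh2, Haao, Asl, Dao and Bckdha. Without replicate 7, 16 of the 39 passed in the lower direction and none in the higher, where 1.95% of all probes passed in the lower direction. Because replicate 7 was picked by the values of these same genes, that count is a description and its rise was built in. Leaving out any other single array left 1 of the 39, Pcx. The 12 that were added to the 4 were Pck1, Slc37a4, Hpd, Fah, Sardh, Cth, Cbs, Prodh, Prodh2, Haao, Kynu and Asl. With 8-week replicate 1 left out as well, 15 passed, against 2.04% of all probes.

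**Figure D4:**
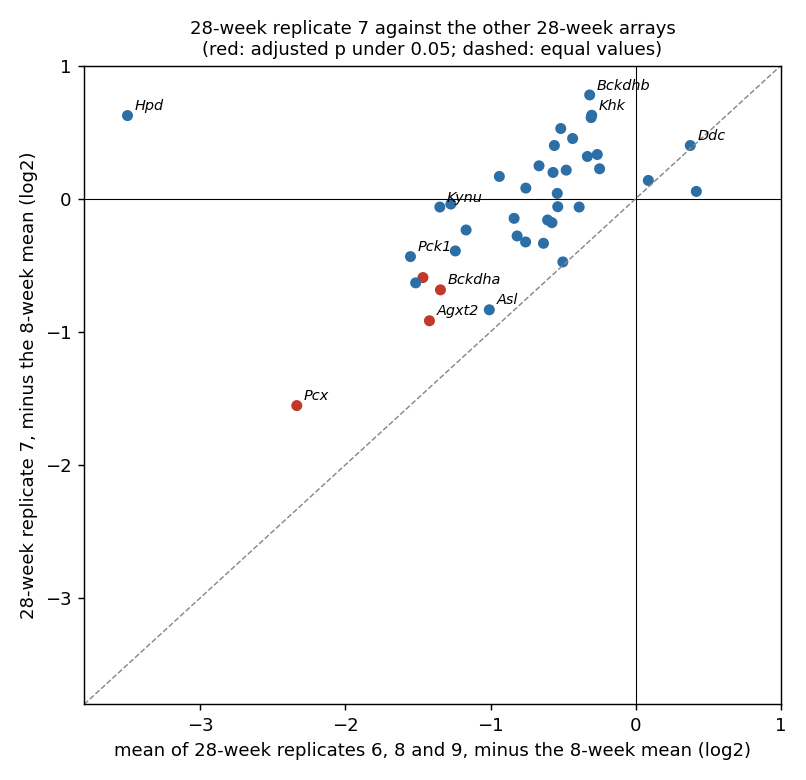
Each point is 1 of the 39 genes, placed by the mean of 28-week replicates 6, 8 and 9 (horizontal) and by replicate 7 (vertical), both as log2 value minus the 8-week mean; red marks the 4 genes past the threshold. Most points lie above the dashed line of equal values, Hpd farthest from it; Asl lies close to it, and Pcx has the lowest value on the vertical axis.

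Lists of marker genes for other cells and states differed in how they followed these arrays. Of 15 measured proximal tubule markers all 15 had a negative difference and Slc22a6 fell, and the mean log2 level of the list was 15.35 to 15.45 over the 8-week arrays, 15.16 in replicate 7 and 14.58 to 14.82 in the other 28-week arrays. The dimmest of these markers, Slc7a13, had a mean of 5.20, below the median probe at 6.06. None of 13 leukocyte markers passed, and the differences of all 13 were above 0. The mean level of the leukocyte list was 5.56 to 6.04 at 8 weeks, 6.26 in replicate 7 and 8.28 to 10.01 in the others, and its defining gene Ptprc read 6.79 in replicate 7 and 8.91 to 10.34 in the others. Of 10 injured-tubule markers 9 had a positive difference and 3, Vcam1, Cdkn1a and Anxa2, rose, with list means of 8.43 to 8.78 at 8 weeks, 9.02 in replicate 7 and 10.23 to 11.19 in the others. The dimmest leukocyte marker was Cd79a (mean 3.96) and the dimmest injured-tubule marker Krt20 (4.66). The podocyte and endothelium list, with 5 negative and 4 positive differences and none past the threshold, had means of 9.55 to 9.92 at 8 weeks and 9.66 to 10 at 28 weeks. Of 14 markers of the loop of Henle and distal tubule 7 had a negative difference and Pvalb fell, with list means of 12.36 to 12.81 at 8 weeks, 12.52 in replicate 7 and 11.83 to 11.94 in the others. All 6 fibroblast and matrix markers had a positive difference, none passed, and the list means were 7.40 to 8.74 at 8 weeks, 7.32 in replicate 7 and 8.57 to 9.21 in the others. Of 13 circadian clock genes 5 fell and 2 rose, and the clock output gene Dbp read 14.06 in replicate 7 and 10.13 to 12.14 in the others, against 16.27 to 16.61 at 8 weeks. The part of tubule content, leukocytes, injury and clock phase in the differences of the enzymes was not tested.

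**Figure D5:**
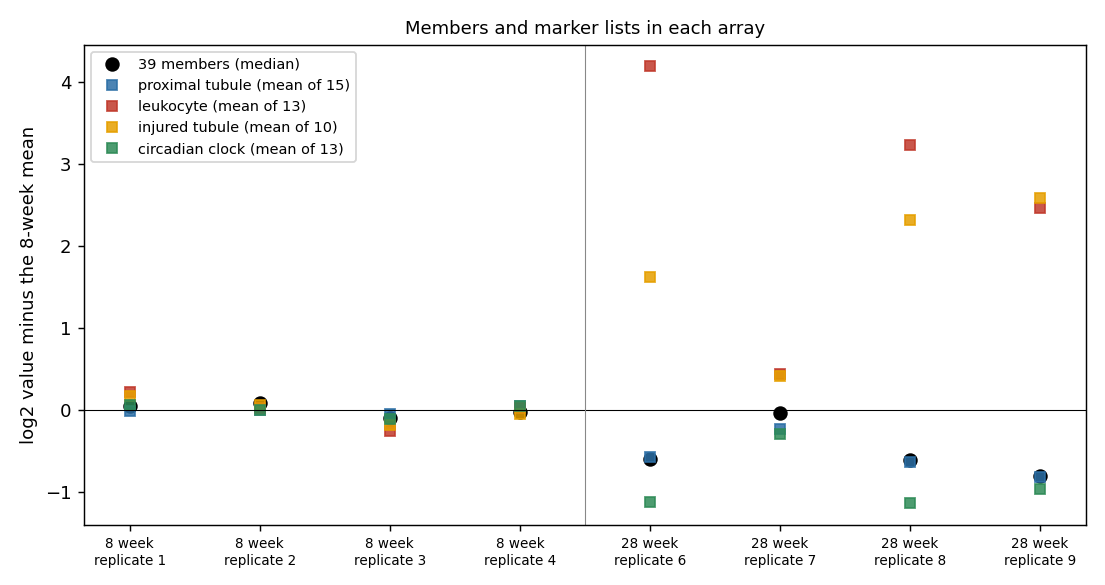
For each array, the median over the 39 genes and the means over 4 marker lists, as log2 value minus the 8-week mean. In 28-week replicates 6, 8 and 9 the enzymes and the proximal tubule and clock lists are below 0 and the leukocyte and injured-tubule lists above 1.5, while replicate 7 lies closer to the 8-week arrays in all 5.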

How the data were processed

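Kidney RNA of 4 NZBWF1 mice at 8 weeks and 4 at 28 weeks was measured on 1-colour Clariom S Mouse arrays. The deposited values are log2 values made by the authors with RMA, per the submitters' processing notes, and range from 2.31 to 19.89. Their log base is not stated there. Base 2, which RMA usually gives, was assumed although 19.89 is high for it, and every fold rests on that. The software's version and options were not given in the sources used here. RMA compresses folds and gives no detection call. The platform annotation named 19572 of 22206 probes. The ages share no replicate number and nothing was paired. All probes were fitted with lmFit and eBayes (limma 3.58.1, R 4.3.3) without a filter, with Benjamini-Hochberg adjustment. The fit was first checked on simulated data, where 49% of probes changed by 1 log2 unit passed and 90% of those changed by 2. A gene that did not pass may therefore still have changed. Of the unchanged simulated probes 12 passed. The simulated noise was drawn separately for each probe and array, so it held no shift of a whole array. Values in every array are given for genes past 0.05, genes whose ages did not overlap, the largest difference of each pathway, and differences of at least 0.3 against the median. Bckdhb, given by array, and Aadat, given by mean and SD, were added after their values were seen. The members, lists, tests and alternatives were chosen with earlier results of these data known.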

Additional observations from a re-analysis of the deposited data

Results flagged for a closer look

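A sample was called far from its group when its gap to the nearest other array was a larger share of the range of the 4 arrays than Dixon's 95% critical value. Of 100 groups of 4 examined, for the 39 genes and the 11 further pathway genes named, 10 had such an array, where chance gives about 1 in 20. At 8 weeks 5 of the 10 were in replicate 1. It was low in Fbp1 (16.43, against 16.94 to 17.02 in the other 8-week arrays), Slc37a4 (14.48, against 15.33 to 15.34) and Aldh6a1 (15.72, against 16.26 to 16.37). It was high in Sardh (11.08, against 10.32 to 10.40) and Hao2 (18.46, against 18.27 to 18.28). Replicate 2 was low in Pck1 (17.11, against 17.42 to 17.43) and replicate 3 in Bhmt2 (9.56, against 9.77 to 9.80). At 28 weeks replicate 7 was high in Cth (13.98, against 13.05 to 13.10), Haao (12.19, against 11.21 to 11.31) and Qdpr (11.81, against 11.19 to 11.25).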

How the results depend on the processing

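The median difference of the 39 genes stayed between -0.65 and -0.37 under all 16 alternatives that gave it, and 33 to 36 differences were negative. The 4 genes that passed (of 215 probes) were 4 or 5 under median centring, quantile normalization, ribosomal centring, without the dimmest probes and with probes averaged by gene. They were 8 (of 399 probes) with trend and robust options, 11 (of 873) with array weights, 15 (of 1384) without both 8-week replicate 1 and 28-week replicate 7, and 1 (of 18) at an adjusted p under 0.01. With 1 array left out, 1 to 16 genes passed, of 25 to 1237 probes: 16 without 28-week replicate 7 and 1, Pcx, without any other array. Signs turned for 4 genes near 0 when 1 array was left out, with ranges of -0.30 to 0.07 for Khk, -0.26 to 0.02 for Gatm, -0.31 to 0.06 for Dmgdh and -0.32 to 0.16 for Bckdhb. The change in the ratio of Gldc to Amt, 28 weeks minus 8 weeks, ranged from -0.30 to 0.18. The cause was not tested. The changes in the other 4 ratios kept their sign with 1 array left out. RMA gives no signal over background, and the dimmest of the 39 genes had a mean of 8.90 where the median probe had 6.06.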
